A study of Schizosaccharomyces pombe with 18 samples.

Results

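The genes of the Sim4 complex of fission yeast, *Schizosaccharomyces pombe*, were followed over 6 groups of cells. The members were taken by name: *sim4*, *mis15*, *mal2* and *fta1* to *fta7*, 10 genes in all, each with 1 probe set among the 2937 probe sets of *S. pombe* genes on the array. The kinetochore is the protein assembly that joins a centromere to spindle microtubules. The Sim4 complex lies in its inner layer, next to the nucleosomes that hold the centromeric histone variant CENP-A (Cnp1 in this yeast), and it corresponds to the network of proteins found at animal centromeres throughout the cell cycle. It is needed for equal segregation of sister chromatids, and some of its members are needed to load Cnp1.

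RNA came from strain SP-Q01 grown in EMM2 medium and harvested at an OD600 of 0.5 (log phase) or 10 (early stationary phase). All cells carried a plasmid, which the sample labels name pESP3 and the study pREP3X: the empty plasmid in WT cells, and the plasmid with RPL3201 or RPL3202, the paralogs of ribosomal protein L32, in cells called *rpl32-1* and *rpl32-2*. Each of the 6 groups had 3 arrays, labelled as separate biological replicates. The study asked which genes the paralogs act on in each growth phase, and it singled out *fta2* among them from these same arrays. It also measured *fta2* by QPCR and reports changes like those on the arrays, between the phases and against WT cells. Those QPCR values are not part of the data used here. Levels are given on the log2 scale after quantile normalization of the *S. pombe* probe sets, and a level of 1 probe set was not set against that of another.

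The arrays differed in quality and some went against their label. On WT early stationary array 3 and on array 3 labelled *rpl32-1* in log phase, 21.7% and 18.7% of the *S. pombe* probe sets did not exceed background, taken as the percentile 95 of the 2601 *S. cerevisiae* probe sets, against 0.715% to 4.70% on the other arrays. As deposited, 7 members did not exceed background on the WT early stationary array 3 (all but *fta1*, *fta3* and *fta6*), and 4 did not on the *rpl32-1* log phase array 3 (*fta2*, *fta4*, *fta6* and *fta7*). All 10 exceeded it on the other arrays. By their distributions the 18 arrays fell into 5 sets that run across the groups. The *rpl32-2* probe set lay at 13.50 to 13.78 on the WT arrays, but at 10.88 and 8.40 on log phase arrays 2 and 3 labelled *rpl32-2*, at 8.80 and 7.73 on early stationary arrays 2 and 3 of that label, and at 8.96 on early stationary array 3 labelled *rpl32-1*. The study reports by QPCR that overexpression of either paralog lowered the mRNA of the other. A low *rpl32-2* level alone therefore does not set an *rpl32-1* array against its label. The *rpl32-1* probe set lay at 13.48 to 14.37 on the WT arrays and at 14.11 to 14.37 on the *rpl32-1* log phase arrays, a difference of 0.39 from WT log phase (adjusted p 0.920). On the early stationary arrays of that label it lay at 14.25, 13.55 and 11.68. On array 3 of these, both paralogs thus lay below every WT array, against the label. The groups are therefore named below as the arrays are labelled.

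As WT cells passed from log phase to early stationary phase, 4 of the 10 genes fell and 1 rose. *sim4* fell 2.43-fold, *mis15* 2.02-fold, *fta5* 3.64-fold and *fta7* 2.05-fold, while *fta6* rose 2.27-fold. The test was limma over all 2937 probe sets, and a call required both 2-fold and an adjusted p below 0.05. By that rule 18.8% of all probe sets were called, 9.09% as lower and 9.74% as higher. At any fold 6 of the 10 members passed the adjusted p, beside 43.9% of all probe sets. The median change was −0.75 over the members and −0.07 over all probe sets. In RNA of a whole culture, fewer cells with a transcript and less transcript per cell cannot be told apart.

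**Figure D1:**
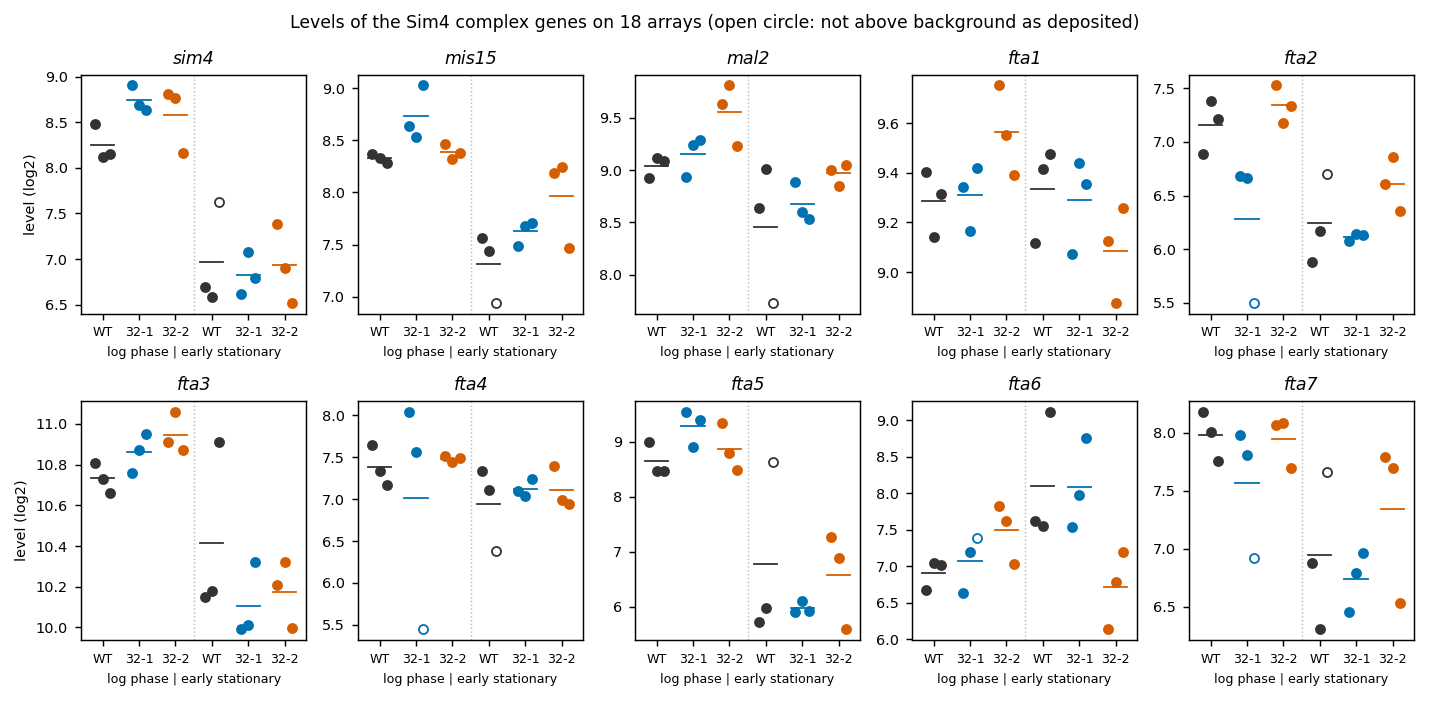
Level (log2, quantile-normalized) of each member on the 18 arrays, by group (WT, labelled *rpl32-1* as 32-1, labelled *rpl32-2* as 32-2), with log phase left and early stationary phase right of the dotted line. Points are arrays in the order 1 to 3, bars are group means, and open circles did not exceed background as deposited; the vertical scale differs between panels. *sim4* lies lower in early stationary phase in all strains, and the WT early stationary array 3 stands apart for *sim4*, *fta5* and *fta6*.

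*sim4* and *fta3* encode the counterparts of the animal proteins CENP-K and CENP-H. *sim4* was at 8.48, 8.12 and 8.15 on the WT log phase arrays 1, 2 and 3, and at 6.70, 6.59 and 7.63 on the early stationary ones. Every early stationary array lay below every log phase array. Early stationary array 3, on which *sim4* did not exceed background, was the nearest to them. The fall of *sim4* was −1.28 (SE 0.27, adjusted p 0.00189, n = 3 per group). Of the WT changes it was the only one called whichever of the 6 WT arrays was left out, at −1.63 to −1.09. It was not called as deposited or by the methods' t-test, adjusted, and the filter on background left *sim4* out.

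*fta3* was at 10.81, 10.73 and 10.66 in WT log phase and at 10.15, 10.18 and 10.91 in early stationary phase. Arrays 1 and 2 of early stationary phase were below the log phase arrays and array 3 above them, so that the groups overlapped. The change of *fta3* was −0.32 (SE 0.18, adjusted p 0.154). Without early stationary array 3 it was −0.56 (SE 0.13, adjusted p 0.00417), still under 2-fold.

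*mis15* and *fta1* encode the counterparts of CENP-N and CENP-L, and *mis15* is among the genes needed to place Cnp1 at centromeres. *mis15* was at 8.37, 8.34 and 8.28 in WT log phase and at 7.56, 7.44 and 6.94 in early stationary phase. The log phase arrays lay close together, and all early stationary arrays were below them. The fall of *mis15* was −1.01 (SE 0.20, adjusted p 0.00115), just past 2-fold. Without early stationary array 3 it was −0.83 (adjusted p 0.00511), and without log phase array 1 it was −0.996 (adjusted p 0.00548), both under 2-fold.

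*fta1* was at 9.40, 9.14 and 9.31 in WT log phase and at 9.12, 9.42 and 9.47 in early stationary phase. Its groups overlapped, and its change of 0.05 had an interval of −0.27 to 0.37 (95%, adjusted p 0.814). The sign of this small value turned without log phase array 2 (−0.02), without early stationary array 3 (−0.02), with median centring of the arrays (−0.06) and as deposited (−0.61, where the median of all probe sets was −0.65).

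*mal2*, *fta2* and *fta7* encode the counterparts of CENP-O, CENP-P and CENP-Q. *fta7* was at 8.18, 8.01 and 7.75 in WT log phase and at 6.88, 6.31 and 7.66 in early stationary phase. The groups did not overlap, but array 3 of early stationary phase came close to array 3 of log phase. The fall of *fta7* was −1.03 (SE 0.37, adjusted p 0.035). It was −1.42 (adjusted p 0.00821) without early stationary array 3, and it lost its call without log phase array 1 (−0.93, adjusted p 0.102) or 2 (−1.01, adjusted p 0.0804) and without early stationary array 1 (−0.997, adjusted p 0.0774) or 2 (−0.71, adjusted p 0.147).

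*fta2* was at 6.89, 7.38 and 7.21 in WT log phase and at 5.88, 6.17 and 6.70 in early stationary phase. No early stationary array reached the lowest log phase array. The change of *fta2* was −0.91 (SE 0.28, adjusted p 0.0160), which passed the adjusted p and not the 2-fold limit. It was called without early stationary array 3 (−1.17, adjusted p 0.00666) and without log phase array 1 (−1.05, adjusted p 0.0190). The study chose this gene on these arrays, so the value given here is not independent evidence of its direction. The QPCR that the study reports for *fta2* is a separate measurement.

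*mal2* was at 8.92, 9.12 and 9.08 in WT log phase and at 8.64, 9.01 and 7.73 in early stationary phase. Array 3, on which *mal2* did not exceed background, was the lowest by far, and array 2 lay within the log phase range. The change of *mal2* was −0.58 (interval −1.11 to −0.05, adjusted p 0.0708). It was −0.21 (adjusted p 0.369) without that array.

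*fta4*, *fta5* and *fta6* were named as proteins found together with Sim4 and Mal2. The current RefSeq annotation lists *fta5* as *pfl8*, a name of the flocculin-like cell surface family, while the array annotation has it as *fta5*. *fta5* was at 8.98, 8.47 and 8.47 in WT log phase and at 5.73, 5.97 and 8.63 in early stationary phase. Early stationary arrays 1 and 2 were far below log phase, and array 3, on which *fta5* did not exceed background, was within its range. The fall of *fta5* was −1.86 (SE 0.59, adjusted p 0.0190) with array 3 and −2.82 (SE 0.39, adjusted p 1.41e-04) without it. It lost its call without log phase array 1 (−1.69, adjusted p 0.0651), early stationary array 1 (−1.34, adjusted p 0.0901) or array 2 (−1.46, adjusted p 0.0780).

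*fta6* was at 6.68, 7.05 and 7.02 in WT log phase and at 7.62, 7.55 and 9.12 in early stationary phase. All early stationary arrays were above all log phase arrays, and array 3 stood far above the other two. The rise of *fta6* was 1.18 (SE 0.41, adjusted p 0.0313). It was 0.69 (adjusted p 0.152) without array 3, and the call was also lost without any one of the log phase arrays 1, 2 and 3 (adjusted p 0.0948, 0.0579 and 0.0602). With the array set as a block it was 0.90 (adjusted p 0.0211), under 2-fold.

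*fta4* was at 7.65, 7.33 and 7.17 in WT log phase and at 7.34, 7.11 and 6.38 in early stationary phase. The groups overlapped, with the lowest value on early stationary array 3, where *fta4* did not exceed background. The change of *fta4* was −0.44 with an interval of −1.43 to 0.55 (adjusted p 0.464). The part of the weak array in these changes was measured by leaving it out: 4 members were then called, *fta2*, *fta5*, *fta7* and *sim4*, all as lower, beside 519 of 2937 probe sets.

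Arrays within 1 set could be compared as deposited, without any further scaling but also without replicates. In set 1, WT early stationary array 1 against log phase array 1, the change of *sim4* was −1.65, of *fta5* −3.27, of *fta7* −1.16, of *fta2* −1.09, of *mis15* −0.68 and of *fta6* 1.06. In set 2, early stationary array 2 against the mean of log phase arrays 2 and 3, the change of *sim4* was −1.42, of *fta5* −2.44, of *fta7* −1.42, of *fta2* −0.96, of *mis15* −0.79 and of *fta6* 0.67. The median over all probe sets was −0.05 in set 1 and −0.06 in set 2. These 6 genes had the same sign in both sets, as did 8 of the 10 members, while *fta1* (−0.17 and 0.22) and *fta4* (−0.22 and 0.026) changed sign. The 6 genes are those that passed the adjusted p in WT on arrays that include these. Their like signs are therefore a description and no separate support. The share of all probe sets with like signs was not counted.

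On the arrays labelled *rpl32-1*, 3 members fell between the phases and 0 rose, where 22.8% of all probe sets were called (11.1% lower and 11.7% higher). On those labelled *rpl32-2*, 2 fell and 0 rose, where 11.8% were called (6.09% lower and 5.72% higher). At any fold 4 members passed the adjusted p in each strain, beside 50.3% and 34.3% of all probe sets. *sim4* and *fta5* were called on both, and *mis15* on the *rpl32-1* arrays. The median change over the members was −0.62 and −0.67, against −0.09 and −0.04 over all probe sets. As deposited, the median of all probe sets on the *rpl32-2* arrays shifted to 0.75 and 7 members changed sign, all but *fta3*, *fta5* and *sim4*, whereas median centring turned *fta4* alone. On the *rpl32-1* arrays *fta1* and *fta2* changed sign under both scalings.

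On the *rpl32-1* arrays *sim4* went from 8.91, 8.69 and 8.64 to 6.62, 7.08 and 6.79. On the *rpl32-2* arrays it went from 8.81, 8.77 and 8.16 to 7.39, 6.90 and 6.52. The phases did not overlap in either strain, and array 3 labelled *rpl32-2* was the lowest of its group in both phases. The fall was −1.92 (SE 0.27, adjusted p 6.43e-05) and −1.65 (SE 0.27, adjusted p 4.15e-04).

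*fta5* went from 9.54, 8.90 and 9.39 to 5.90, 6.11 and 5.92 on the *rpl32-1* arrays, and from 9.33, 8.79 and 8.48 to 7.27, 6.90 and 5.60 on the *rpl32-2* arrays. The early stationary arrays of *rpl32-1* lay close together, whereas those of *rpl32-2* were spread, with arrays 1 and 2 above every *rpl32-1* array. The fall was −3.30 (SE 0.59, adjusted p 3.73e-04) and −2.28 (SE 0.59, adjusted p 0.00822).

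*mis15* went from 8.64, 8.53 and 9.03 to 7.49, 7.68 and 7.71 on the *rpl32-1* arrays, a fall of −1.11 (SE 0.20, adjusted p 4.60e-04). Without log phase array 3, where 4 other members did not exceed background, it was −0.94 (adjusted p 0.00299), and with the array set as a block −0.999 (adjusted p 0.0390), both under 2-fold. With *rpl32-2*, *mis15* went from 8.47, 8.32 and 8.38 to 8.18, 8.24 and 7.47. The phases did not overlap there, but arrays 1 and 2 of early stationary phase lay just under log phase and array 3 well under it. The change was −0.42 (interval −0.86 to 0.01, adjusted p 0.119).

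*fta3* passed the adjusted p in both strains without reaching 2-fold. It went from 10.76, 10.87 and 10.95 to 9.99, 10.01 and 10.32 on the *rpl32-1* arrays, a change of −0.76 (SE 0.18, adjusted p 0.00262). On those labelled *rpl32-2* it went from 10.91, 11.06 and 10.87 to 10.21, 10.32 and 10.00, a change of −0.77 (SE 0.18, adjusted p 0.00405). *fta3* exceeded background on all 18 arrays, and its phases did not overlap in either strain. *fta1* did so only on the *rpl32-2* arrays, from 9.75, 9.55 and 9.39 to 9.12, 8.88 and 9.26 (−0.48, SE 0.15, adjusted p 0.0231), and its change was −0.02 (adjusted p 0.915) on the *rpl32-1* arrays.

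*fta6* went from 6.64, 7.19 and 7.38 to 7.53, 7.97 and 8.76 on the *rpl32-1* arrays, a change of 1.02 (SE 0.41, adjusted p 0.0521) with no overlap. It was called without log phase array 3 (1.18, adjusted p 0.0491), where *fta6* did not exceed background, without early stationary array 1 (1.301, adjusted p 0.0307), and without 4 arrays of other groups, each left out in turn. On the *rpl32-2* arrays *fta6* went from 7.82, 7.62 and 7.04 to 6.14, 6.79 and 7.20. Arrays 1 and 2 of early stationary phase were below log phase there and array 3 lay within it. The change was −0.78 (interval −1.66 to 0.10, adjusted p 0.158).

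*fta7* went from 7.99, 7.81 and 6.92 to 6.46, 6.79 and 6.97 on the *rpl32-1* arrays (−0.83, adjusted p 0.0725). The phases overlapped through log phase array 3, where *fta7* did not exceed background, and without it the fall was called (−1.18, adjusted p 0.0223). On the *rpl32-2* arrays it went from 8.07, 8.08 and 7.70 to 7.79, 7.70 and 6.54 (−0.61, adjusted p 0.222), with only array 3 of early stationary phase well below log phase. For *mal2* and *fta4* the changes were −0.48 and 0.11 on the *rpl32-1* arrays and −0.59 and −0.38 on the *rpl32-2* arrays, with adjusted p values between 0.0801 and 0.854. With an array left out, that of *fta4* on the *rpl32-1* arrays ran from −0.69 to 0.62.

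**Figure D2:**
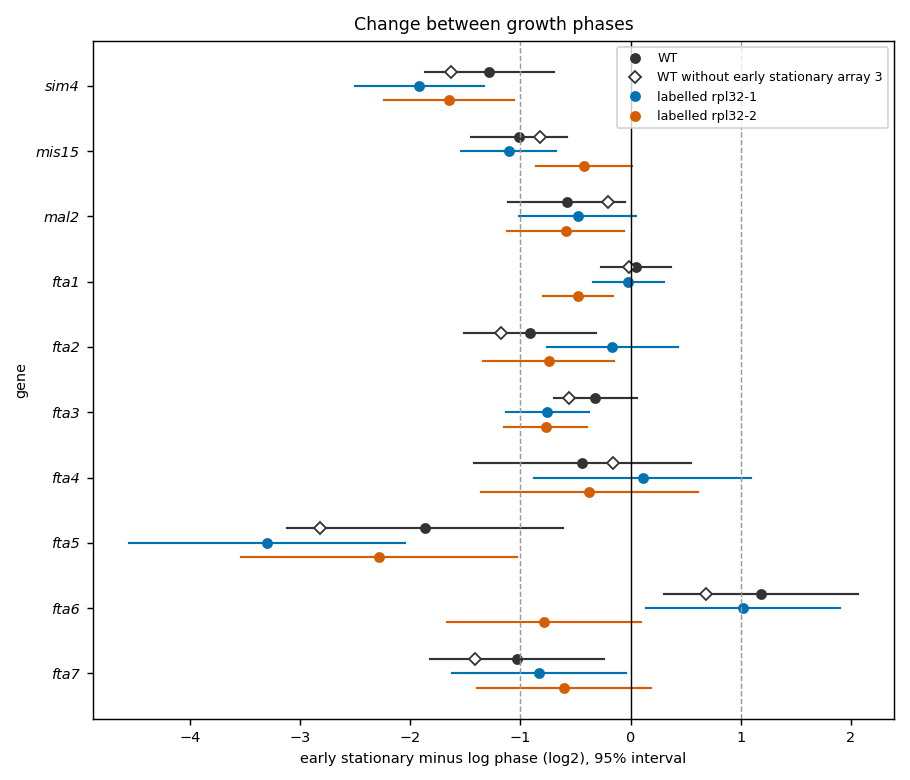
Change of each member from log phase to early stationary phase (log2, limma), with lines for the 95% interval; diamonds give the WT value without early stationary array 3, and dashed lines mark 2-fold. *sim4* and *fta5* lie past 2-fold below zero in all 3 strains, and *fta6* lies at 1.18 in WT and at −0.78 on the arrays labelled *rpl32-2*.

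The early stationary arrays labelled *rpl32-2* were not alike. For *fta5*, *fta7*, *mis15* and *sim4*, array 3 was the lowest of the 3 and nearest to WT early stationary arrays 1 and 2, and arrays 1 and 2 lay towards the log phase levels. For *fta6* array 1 was the lowest. The genes used to check the growth phase varied in the same group. *ght3*, a hexose transporter gene, was at 8.57, 9.57 and 12.36 on these arrays, against 11.99 to 13.52 on the WT early stationary arrays and 5.76 to 6.63 on the WT log phase arrays. *fbp1*, which encodes a phosphatase of gluconeogenesis, was at 9.62, 11.83 and 14.06, against 13.81 to 14.04 and 7.25 to 7.78. *gln1*, which encodes glutamine synthetase, was at 11.76, 11.71 and 10.50, against 9.66 to 9.99 (9.995 before rounding) and 12.96 to 13.08. All 3 genes thus placed arrays 1 and 2 between the WT phases, and their part in the values of the members was not tested. In set 2, where array 3 of early stationary phase can be compared with array 3 of log phase as deposited, the change of *fta5* was −2.66, of *sim4* −1.31, of *fta7* −0.80, of *mis15* −0.66 and of *fta6* 0.67.

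**Figure D3:**
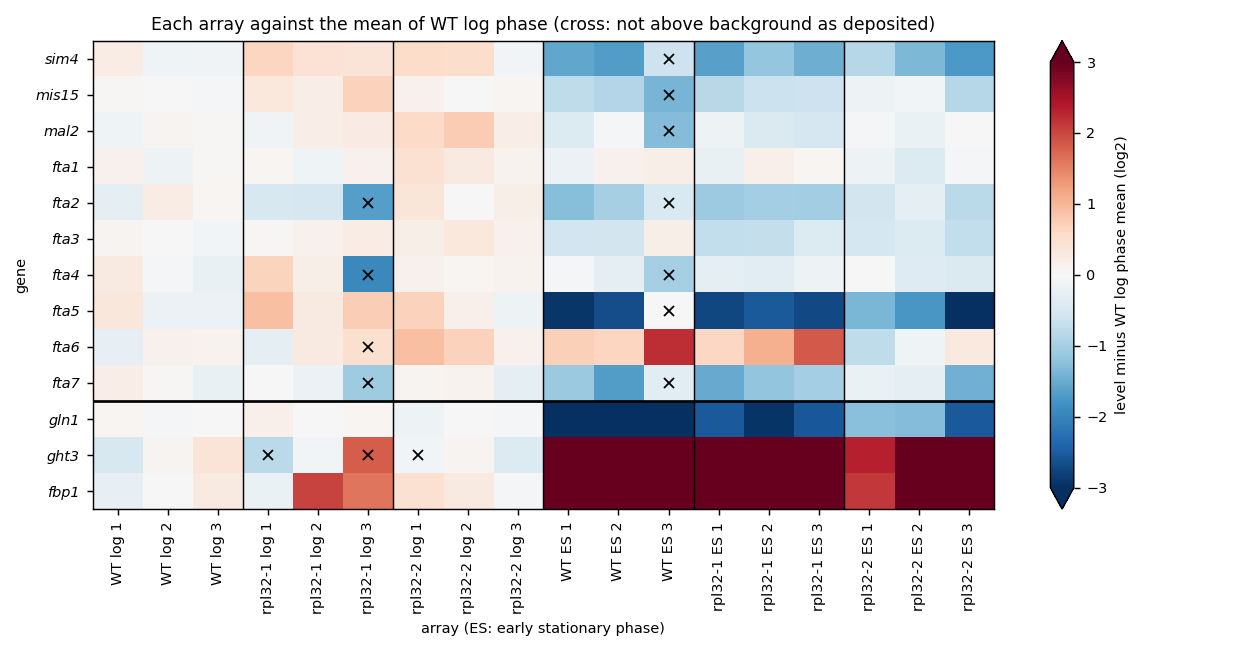
Level of each member, and of *gln1*, *ght3* and *fbp1* as phase checks, on each array minus the WT log phase mean (log2; colours end at 3 in either direction, ES is early stationary phase); crosses did not exceed background as deposited. Arrays 1 and 2 labelled *rpl32-2* in early stationary phase are paler than array 3 for *fta5* and *gln1*, and array 1 is for *ght3* and *fbp1*, where array 2 lies past the end of the colours.

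Against WT cells of the same phase, 0 members were called on the arrays labelled *rpl32-1* or *rpl32-2*, and 0% of all probe sets were. For *rpl32-2* in early stationary phase the count over all probe sets was 203 without array 3 of that group and 170 with array weights. Array weights gave 36 and 17 for *rpl32-1* and *rpl32-2* in log phase. At an unadjusted p under 0.05 the counts in log phase were 1 member on the *rpl32-1* arrays and 0 on the *rpl32-2* arrays, where 6.09% and 2.76% of all probe sets passed. In early stationary phase they were 0 and 2 members, where 4.02% and 21.0% passed. By the methods' t-test, unadjusted and at 2-fold, 0 members were called in all 4 comparisons. It was run here on the quantile-normalized values and not on the values as deposited. That test called few of the 2937 probe sets: for *rpl32-1* 8 (log) and 0 (early stationary), for *rpl32-2* 2 (log) and 13 (early stationary). A count of 0 among 10 members therefore does not set the members apart from the other probe sets. The member that passed in log phase was *fta2*, and those in early stationary phase were *fta6* and *mis15*.

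*fta2* was at 6.68, 6.66 and 5.499 on the *rpl32-1* log phase arrays, against 6.89, 7.38 and 7.21 in WT. The *rpl32-1* arrays were all below the WT arrays, by little for arrays 1 and 2, and array 3 did not exceed background. The difference was −0.88 (SE 0.28, interval −1.48 to −0.29, adjusted p 0.802), and −0.50 (SE 0.22, adjusted p 0.9997) without array 3. Within set 1, array 1 against WT array 1, it was −0.58 as deposited. Over all arrays *fta2* was at 7.06, 7.02 and 3.87 as deposited, against 7.64, 7.79 and 7.65 in WT. Through array 3 these group means lay more than 2-fold apart, without a call. The median difference of all probe sets was then −0.47. On the same *rpl32-1* arrays *fbp1* was at 7.30, 9.54 and 9.12, above the WT log phase range on arrays 2 and 3, and its part in the *fta2* value was not tested.

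In early stationary phase *fta2* was at 6.60, 6.86 and 6.35 on the *rpl32-2* arrays, against 5.88, 6.17 and 6.70 in WT. The highest WT value was that of array 3, where *fta2* did not exceed background, and the groups overlapped through it. The difference was 0.36 (SE 0.28, interval −0.24 to 0.95, adjusted p 0.481), and 0.60 (SE 0.30, adjusted p 0.407) without that array. As deposited it was 0.88 in set 1, with array 1, and 0.38 in set 2, with array 3. Over all arrays *fta2* was at 7.43, 7.67 and 7.15 as deposited, against 6.55, 6.77 and 4.365 in WT. Through WT array 3 these group means lay more than 2-fold apart, without a call. The median difference of all probe sets was then 0.65. In the other comparisons with WT, *fta2* differed by 0.19 on the *rpl32-2* log phase arrays (7.53, 7.18 and 7.33, interval −0.41 to 0.78) and by −0.13 on the *rpl32-1* early stationary arrays (6.07, 6.14 and 6.13, interval −0.73 to 0.46).

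*fta6* was at 6.14, 6.79 and 7.20 on the early stationary arrays labelled *rpl32-2*, against 7.62, 7.55 and 9.12 in WT. All were below the WT arrays. The difference was −1.39 (−1.385 before rounding, SE 0.41, interval −2.27 to −0.50, adjusted p 0.109). It was −0.90 (adjusted p 0.327) without WT array 3, and −1.64 (adjusted p 0.0228) and called without *rpl32-2* array 3, where 203 of 2937 probe sets were called. As deposited it was −1.66 in set 1 and −0.19 in set 2, much larger with array 1 than with array 3.

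*mis15* was at 8.18, 8.24 and 7.47 on the same arrays, against 7.56, 7.44 and 6.94 in WT. Arrays 1 and 2 were above all WT arrays and array 3 was within their range. The difference was 0.65 (SE 0.20, interval 0.22 to 1.08, adjusted p 0.112), and 0.46 (adjusted p 0.344) without WT array 3. As deposited it was 0.66 in set 1 and 0.17 in set 2. The levels of *ght3*, *fbp1* and *gln1* given above moved with these arrays as well.

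The interval of the difference from WT included zero for all other members in all 4 comparisons. The groups did not overlap for *sim4* and *mis15* on the *rpl32-1* log phase arrays and for *fta3* and *mal2* on the *rpl32-2* log phase arrays. The share of all probe sets without overlap was not counted, so no difference is read from it. In log phase the *rpl32-1* arrays had *sim4* 0.49 (interval −0.09 to 1.08), *fta5* 0.64 (−0.62 to 1.89) and *mis15* 0.41 (−0.03 to 0.84) above WT, and 7 of the 10 members lay above zero. The *rpl32-2* arrays had 9 of 10 above zero, from −0.03 for *fta7* to 0.58 for *fta6*, with *mal2* at 0.51 (−0.02 to 1.04). The median difference over all probe sets was −0.005 for *rpl32-1* and −0.004 for *rpl32-2*, and their share above zero was not counted. In early stationary phase the differences ran from −0.80 for *fta5* (−2.05 to 0.45) to 0.31 for *mis15* (−0.12 to 0.75) on the *rpl32-1* arrays. On the *rpl32-2* arrays *mal2* lay 0.51 above WT (−0.02 to 1.04). With an array left out, this *fta5* difference ran from −1.32 to 0.13 and this *mal2* difference from 0.14 to 0.79. Neither gene exceeded background on WT early stationary array 3. Signs depended on the scaling: in log phase 3 members changed sign with median centring on the arrays of each paralog (*fta1*, *fta6* and *mal2* for *rpl32-1*; *fta2*, *fta4* and *mis15* for *rpl32-2*), and 7 and 9 did as deposited, where the median of all probe sets was −0.47 and −0.67. In early stationary phase 5 and 2 members changed sign with median centring and 5 and 4 as deposited, none of them *fta6* or *mis15* on the *rpl32-2* arrays. The intervals of *fta4*, *fta5*, *fta6* and *fta7* include changes of 2-fold or close to it in most of these comparisons, so that a missed threshold does not show like levels.

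**Figure D4:**
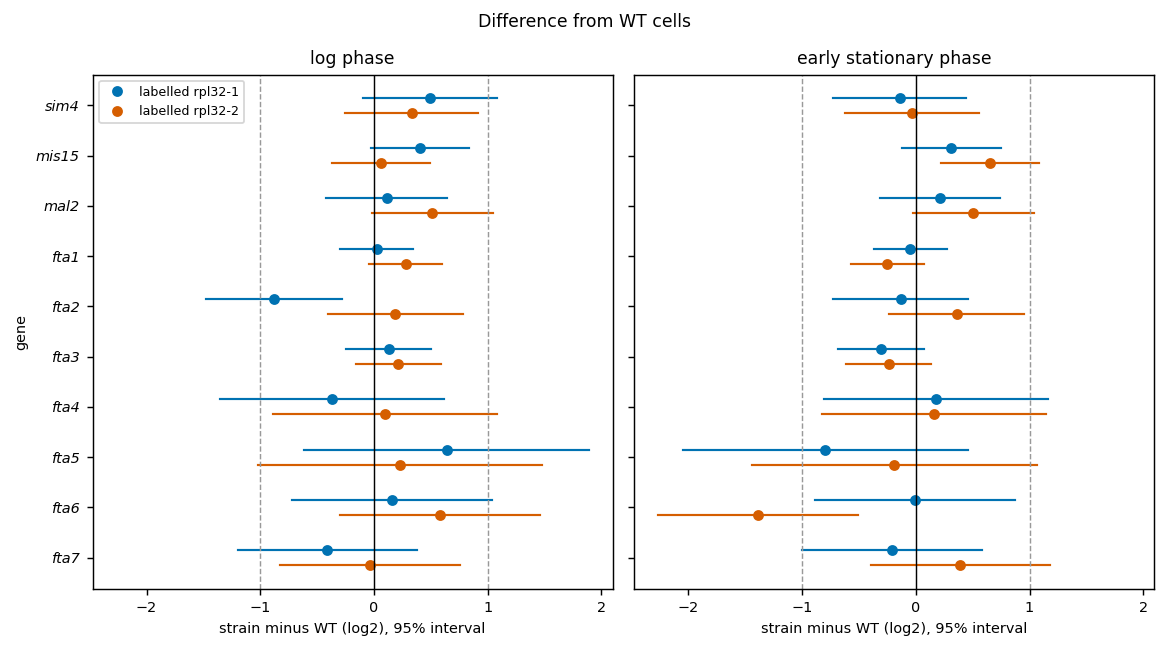
Difference of each member from WT cells in log phase (left) and early stationary phase (right), for arrays labelled *rpl32-1* and *rpl32-2* (log2, limma, lines for the 95% interval, dashed lines at 2-fold). The interval excludes zero for *fta2* on the *rpl32-1* log phase arrays, and for *fta6* and *mis15* on the *rpl32-2* early stationary arrays, none of which passed the adjusted p.

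Tested directly, the phase change of a member did not differ between strains past the threshold: 0 members and 0% of all probe sets were called for either paralog. At an unadjusted p under 0.05 the counts were 0 members for *rpl32-1* and 2 for *rpl32-2*, where 6.64% and 12.2% of all probe sets passed. The larger of the 2 was *fta6*, whose phase change on the *rpl32-2* arrays was 1.96 lower than in WT (interval −3.21 to −0.72, adjusted p 0.376, and adjusted p 0.0452 with a call without *rpl32-2* early stationary array 3, where 138 of 2937 probe sets were called). With array weights 217 probe sets were called for *rpl32-2* and 65 for *rpl32-1*. As deposited that difference was 0.06, where the median of all probe sets was 1.34. The other was *fta1*, 0.53 lower (interval −0.98 to −0.07, adjusted p 0.386). The arrays labelled *rpl32-1* and *rpl32-2*, set against each other, also gave 0 called members in either phase and 0% of all probe sets. At an unadjusted p under 0.05 only *fta2* passed in log phase, at −1.07 for *rpl32-1* minus *rpl32-2* (adjusted p 0.803), and only *fta6* in early stationary phase, at 1.38 (adjusted p 0.148), beside 3.95% and 16.6% of all probe sets.

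Ordered by group mean, *fta2* stood highest on the *rpl32-2* log phase arrays (7.35 ± 0.18, SD, n = 3), followed by WT log phase (7.16 ± 0.25) and the *rpl32-2* early stationary arrays (6.60 ± 0.25). The *rpl32-1* log phase arrays (6.28 ± 0.68), WT early stationary phase (6.25 ± 0.42) and the *rpl32-1* early stationary arrays (6.11 ± 0.04) came last. Only the step from WT log phase to the *rpl32-2* early stationary arrays separated neighbours without overlap, with a lowest value of 6.89 against a highest of 6.86. *fta6* stood highest in WT early stationary phase (8.10 ± 0.89) and on the *rpl32-1* early stationary arrays (8.09 ± 0.62), and lowest in WT log phase (6.91 ± 0.20) and on the *rpl32-2* early stationary arrays (6.71 ± 0.53), with the other log phase groups between. *sim4*, *fta3*, *fta5*, *fta7*, *mal2* and *mis15* had the 3 log phase groups above the 3 early stationary groups.

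The members did not vary as 1 block over the 18 arrays. *sim4* and *fta5* had a Pearson r of 0.965, *fta3* and *fta5* 0.936, and *fta3* and *sim4* 0.905, while *fta6* ran against *mis15* (−0.584) and *mal2* (−0.491). The median r of a member with the other members was highest for *fta7* and *mis15* (0.566 each), lower for *fta1* (0.219) and *fta4* (0.110), and negative for *fta6* (−0.236). These values are descriptions: all arrays share the phase contrast, the scaling and the weak arrays. Among the other *S. pombe* probe sets, those most like *fta2* were *mis17*, which encodes another protein of the inner kinetochore (r 0.873), *sfc9*, a subunit gene of transcription factor TFIIIC (0.841), and *pcf3*, a subunit gene of chromatin assembly factor CAF-1 (0.835). Those most like *fta5* were *mug176* (0.988, from 0.9875), *laf1* (0.983) and *tim17*, of the mitochondrial import machinery (0.975). Those most like *fta6* were *rsd1* (0.894), the phosphatase gene *ptc4* (0.877) and *pdf1* (0.865).

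Of 59 other genes of the kinetochore, the spindle checkpoint and cohesin, in 8 lists, 54 were measured. In the WT phase change 1 was called as higher and 2 as lower, 5.56% of those measured, beside 18.8% of all probe sets. Their median change was −0.10 (−0.096), and 32 lay below zero. The 3 called genes were *bub3* of the spindle checkpoint (−1.77, SE 0.37, adjusted p 0.00140), *slp1*, the activator of the anaphase-promoting complex (−1.19, SE 0.40, adjusted p 0.0269), and *dam1*, a subunit of the DASH ring that holds kinetochores on microtubules (1.11, SE 0.30, adjusted p 0.00829). None of the 7 measured genes of the other inner kinetochore list, the 10 of the outer kinetochore, the 7 of cohesin, the 5 for loading CENP-A, the 5 of the chromosomal passenger and shugoshin list and the 5 for kinetochore microtubules were called. The median of the outer kinetochore list was 0.02 and that of the other inner kinetochore list −0.02, against −0.75 for the 10 listed members of the Sim4 complex. The lists were made by name. Whether a gene of another list, such as *mis17*, also belongs to the Sim4 complex was not examined. No test of 1 list against another was made.

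**Figure D5:**
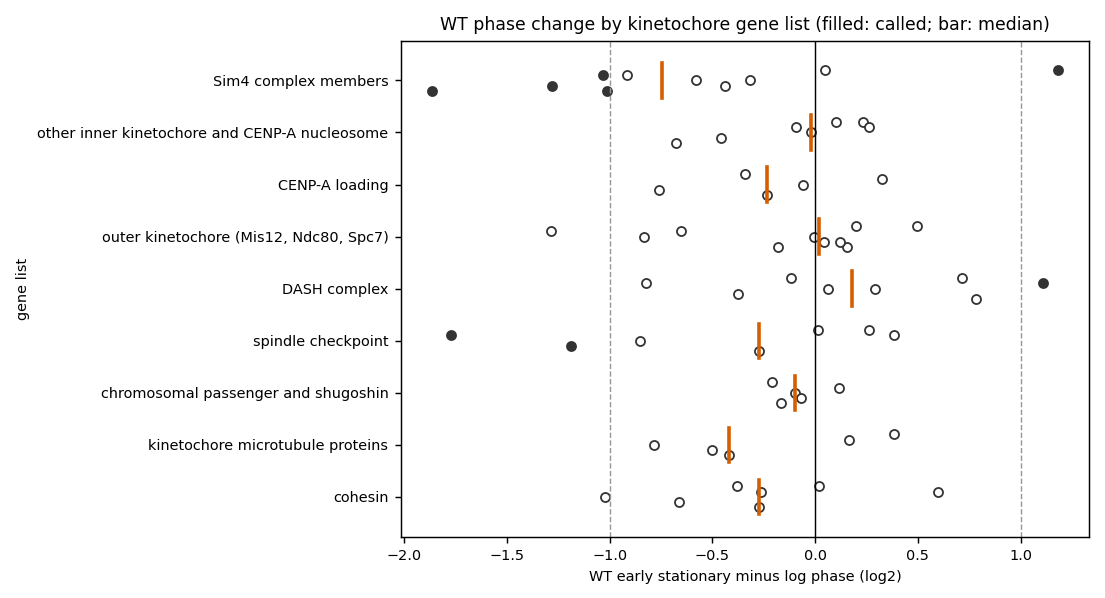
WT change from log phase to early stationary phase (log2) of each measured gene of the Sim4 complex and of 8 other kinetochore lists; filled points were called, bars are medians and dashed lines mark 2-fold. The list of Sim4 complex members has its median at −0.75 and 5 filled points, and the other lists have 3 filled points in all.

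By the RefSeq annotation, 5 of the 10 members overlap a protein-coding gene and 8 a noncoding gene, *fta6* alone overlaps none, and 0 pairs of members overlap each other. In the WT phase change *nxt3*, which overlaps *fta3*, was at −1.75 beside −0.32, *pdh1*, which overlaps *fta7*, by 0.92 beside −1.03, and *hst4*, which overlaps *fta2*, by −0.04 beside −0.91. The positions of the probes within these genes were not analysed here, so a share of signal from an overlapping transcript was not tested.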

How the data were processed

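RNA was measured on GeneChip Yeast Genome 2.0 arrays, 18 arrays in 6 groups of 3. The values deposited by the authors are on the log2 scale and come from RMA, run in Partek. The sources used here do not say which arrays shared a normalization, and the values fell into 5 sets (mean difference of ranked values at most 0.175 within and at least 0.274 between sets). All columns had a sample (0 without). The 2937 *S. pombe* probe sets were therefore quantile-normalized over all arrays and a mean per group was fitted with limma (version 3.58.1, R version 4.3.3) and Benjamini-Hochberg adjustment over all of them. A call needed an adjusted p under 0.05 and 2-fold, the fold limit of the study's methods. Signal over background limits the precision of weak probe sets, as does the number of arrays.

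Named were all members, the paralogs, *ght3*, *fbp1* and *gln1*, up to 3 called genes of each other list, and the 3 genes most like *fta2* and like the members with the largest WT rise and fall. The members and lists were chosen with earlier results of these data known. The alternatives were no minimum fold, the deposited values, median centring, a filter on background, blocks by replicate number and by array set, array weights, another variance model, only the groups compared, the methods' t-test and each array left out. The t-test was run on the quantile-normalized values only. One more, without the 5 arrays against their label, was added after the data were seen. These were the arrays whose *rpl32-2* probe set lay more than 2-fold below its lowest WT array, whichever paralog the label named. Gene names came from the array annotation, with 113 symbols updated from RefSeq. RefSeq (assembly ASM294v3) served only for names and overlaps, and sequences of promoters and proteins were not analysed here. The scripts were tested on simulated data.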

Additional observations from a re-analysis of the deposited data

Results flagged for a closer look

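The phase change of *fta6* on the arrays labelled *rpl32-2* minus that in WT cells was −1.96, and it stood out because all 3 WT early stationary arrays lay above the WT log phase mean and all 3 *rpl32-2* early stationary arrays below the *rpl32-2* log phase mean. The difference was tested and did not pass (adjusted p 0.376 in limma), and array 3 of early stationary phase was close to its log phase group (7.20 against 7.04 to 7.82). As deposited the difference was 0.06, where all probe sets had a median of 1.34. The phase change of *fta4* on the arrays labelled *rpl32-1* minus that in WT cells was 0.55, for the same reason with the directions turned. It did not pass either (adjusted p 0.840 in limma), and *fta4* did not exceed background on WT early stationary array 3 and *rpl32-1* log phase array 3. With an array left out this difference ran from −0.24 to 1.05, so its sign was not stable.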

How the results depend on the processing

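As deposited, the median of all probe sets moved to −0.65 in the WT phase change, −0.47 and −0.67 on the *rpl32-1* and *rpl32-2* log phase arrays against WT, 0.65 on the *rpl32-2* early stationary arrays and 0.75 in their phase change. Counts of called members in the WT phase change were 5, and 1 as deposited (*fta5*; 53 probe sets called in place of 553), 2 in a fit of only the groups compared, 2 and 1 by the methods' t-test unadjusted and adjusted, and 2 to 5 with an array left out. On the *rpl32-1* phase change they were 3, and 1 as deposited. On that of *rpl32-2* they were 2, and 4 with no minimum fold, 0 as deposited and 0 by the adjusted t-test. Without the arrays against their label 1 array was left in each phase of *rpl32-2*, too few for a count. There the change was −1.45 for *sim4* and −2.11 for *fta5*. Requiring signal above background on all arrays kept only *fta1* and *fta3* of the members and gave 0 in all 3 phase changes. The *rpl32-2* early stationary difference from WT and the difference of its phase change gave 0 to 1 with an array left out (*fta6*), and the latter 1 with array weights. Array weights also put *fta2* in *rpl32-1* log phase (−0.67, adjusted p 8.26e-04) and *rpl32-2* early stationary phase (0.83, adjusted p 0.00371) and *mis15* in the latter (0.71, adjusted p 4.79e-04) past the adjusted p but under 2-fold. The estimation of the weights stopped short of its tolerance.

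Signs turned for *fta2* on the *rpl32-2* log phase arrays against WT (−0.91 as deposited, −0.23 with median centring, −0.021 with array weights), on the *rpl32-1* early stationary arrays (0.33, 0.37 and 0.15 in the same order, 0.10 (0.098) without both weak arrays, −0.31 to 0.095 with an array left out), in the *rpl32-1* phase change (0.24 as deposited, 0.34 with median centring, −0.57 to 0.040 with an array left out) and in the *rpl32-2* phase change as deposited (0.63), and its difference for *rpl32-2* ran from −0.015 to 0.41 with an array left out. *fta1* turned in the *rpl32-2* phase change as deposited (0.42). Among all other member changes, none of which passed the adjusted p, 177 of their alternative values turned sign. Most of the rest, 1746, were rated the same as in the main fit.

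Arrays share replicate numbers, but same-numbered arrays did not deviate together in all comparisons (r −0.33 to 0.47). With a replicate block the counts of called members were 5, 4 and 2 in the WT, *rpl32-1* and *rpl32-2* phase changes, *fta6* being added in *rpl32-1* (adjusted p 0.0282), and 0 elsewhere. A block for the array set gave 4, 2 and 2 in the same order, *fta6* in WT and *mis15* in *rpl32-1* then being under 2-fold.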
